A study of Mus musculus with 12 samples.

Results

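The 10 genes examined belong to interleukin-6 family signalling and were measured in mpkCCD cells, an immortal mouse line from the cortical collecting duct. They were the receptor genes Lifr, Il6st, Osmr, Il6ra and Il11ra1, the ligand genes Lif and Ctf1, the kinase gene Jak1, the transcription factor gene Stat3 and the inhibitor gene Socs3. They were taken by symbol, and all 10 had 1 row each among the 52015 genes used. Control cells (Scr) had been transduced with a non-targeting scramble gRNA, and Nfat5-KO cells came from the 2 CRISPR/Cas9 clones N1 and N3. Both kinds were kept for 5 days at 300 mosmol/kg or at 600 mosmol/kg, the latter reached with 100 mM NaCl and 100 mM urea, in DMEM/F12 with serum that all groups shared. Scr_300 and Scr_600 had 2 libraries each, and Nfat5-KO_300 and Nfat5-KO_600 had 4 each. The knockout groups thus rest on 2 clones, and whether the scramble libraries came from 1 or several lines is not stated. The comparisons ask how these genes depend on tonicity and on NFAT5, the transcription factor that drives the response to hypertonicity.

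Cytokines of this family signal through gp130, the shared receptor chain that Il6st encodes. LIF and cardiotrophin-1 (Ctf1) bind a pair of gp130 and the LIF receptor (Lifr), and CNTF and CLCF1 need CNTFR as a further chain. Interleukin-6 and interleukin-11 first bind their own alpha chains (Il6ra, Il11ra1), and oncostatin M uses OSMR with gp130. JAK kinases bound to the receptors phosphorylate STAT3, which enters the nucleus and switches on Socs3, and SOCS3 protein then binds gp130 and JAK and ends the signal. In kidney tubules this pathway is known from injury and acute-phase responses.

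The upstream sequences of Lifr and Socs3 are shown because these were the members whose levels differed most between Scr_600 and Scr_300. RefSeq gives Lifr 2 start sites on the plus strand of chromosome 15 of GRCm38.p6, and the 250 bases before the first (chr15:7129322-7129571) and the second (chr15:7140292-7140541) read 5′ to 3′ in the direction of the gene as follows, without any match to the motifs searched.
Lifr, first start: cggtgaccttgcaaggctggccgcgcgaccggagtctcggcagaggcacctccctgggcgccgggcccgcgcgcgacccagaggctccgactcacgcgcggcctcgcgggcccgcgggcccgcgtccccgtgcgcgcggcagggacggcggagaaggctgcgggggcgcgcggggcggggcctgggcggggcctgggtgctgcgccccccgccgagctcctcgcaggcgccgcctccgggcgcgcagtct
Lifr, second start: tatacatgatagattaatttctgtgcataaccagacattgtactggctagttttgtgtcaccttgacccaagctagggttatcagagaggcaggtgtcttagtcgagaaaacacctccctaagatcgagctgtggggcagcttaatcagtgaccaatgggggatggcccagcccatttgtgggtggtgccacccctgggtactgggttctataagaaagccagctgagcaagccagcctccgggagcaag
The first window had a GC content of 82.4% with 43 CpG dinucleotides, and the second one of 50.8% with 3, against medians of 52.4% and 6 over all windows of this length. The 250 bases before the RefSeq start of Socs3 on the minus strand of chromosome 11 (chr11:117969367-117969616) held 1 match to the STAT motif. The match begins 154 bases before that start and is in capitals. This window and both Lifr windows lie inside the gene spans of GENCODE M21 given below, so they are upstream of RefSeq starts only.
Socs3: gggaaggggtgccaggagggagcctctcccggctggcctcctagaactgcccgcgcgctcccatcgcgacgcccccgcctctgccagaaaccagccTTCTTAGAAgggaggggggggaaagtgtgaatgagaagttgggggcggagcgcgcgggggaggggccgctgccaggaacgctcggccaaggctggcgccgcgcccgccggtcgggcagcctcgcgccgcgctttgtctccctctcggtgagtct
The motifs searched were TTCNNNGAA for STAT and TGGAAA for the core of NFAT sites, on both strands, and a STAT match that ends in TGGAA can share letters with the NFAT core. Of 32851 such windows in RefSeq, 7.02% held the first and 18.6% the second. Of the 12 windows of the 10 members, 1 held the STAT motif (Socs3) and 1 the NFAT core (the second start of Il11ra1, 130 bases upstream on the minus strand). A match in these letters is a description and not a binding site.

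The study measured Lifr by RT-qPCR, and its result is not reported here. The primer pair that it lists for Lifr was placed on the annotated transcripts, since it decides which of them a PCR reads.
Lifr sense primer: ccaccggactgctccttcag
Lifr antisense primer: tccacgatggctgtctccac
Both primers occurred in 2 of the 8 Lifr transcripts of GENCODE M21. In Lifr-201 the sense primer lay in exon 1 (chr15:7129723-7129742), the antisense primer in exon 2 (chr15:7154426-7154445), and the product spanned 163 bases. In Lifr-202 the product spanned 301 bases between exons 1 and 3. The sense primer follows the first start shown above, so transcripts from the second start are not read by this pair. The FPKM values count reads on all annotated exons of the gene and do not separate these starts.

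The deposited values were 1 FPKM per gene and group, the mean of the libraries of the group. FPKM is the number of reads per kilobase of exon, scaled to the reads of a library. Values of low genes were whole reads of 2 or 4 libraries scaled by 1 total per library for 87.3% to 90.3% of the genes expected to hold few reads, within 1.2 times the rounding of the values. This gave scaling totals, rounded, of 32000000 to 37100000 reads for the Scr libraries and 29300000 to 37500000 reads for the Nfat5-KO libraries. With these totals the reads of both libraries could be read off for 93.3% of 12777 expressed genes in the Scr groups, and for low genes only in the Nfat5-KO groups. Which label belongs to which recovered library is unknown, so the libraries are called deeper and shallower, and the deeper one is given first below. Nfat5 itself had 5.61 and 5.60 FPKM in the Scr_300 libraries and 8.64 and 7.22 FPKM in the Scr_600 libraries, and its mRNA was still present in Nfat5-KO_300 (3.47 FPKM) and Nfat5-KO_600 (6.88 FPKM). The 6 epithelial markers summed to 1039.3 to 1623.1 FPKM in a group, whereas of 12 principal cell markers only Aqp3, Scnn1a, Hsd11b2, Gata2 and Gata3 reached 0.5 FPKM and Aqp2 stayed at 0 to 0.245 FPKM. The 6 fibroblast and mural markers summed to at most 0.249 FPKM, the 4 endothelial markers to at most 0.192 FPKM and the 6 leukocyte markers to 2.98 to 5.89 FPKM, the latter almost all Csf1r and Cd68, with Cd3e at 0. The 5 proximal tubule markers summed to 0.0518 to 0.0642 FPKM in the Scr groups and to 0.370 and 1.24 FPKM in Nfat5-KO_300 and Nfat5-KO_600, mostly Lrp2, and the 6 intercalated cell markers to 0.499 to 1.04 FPKM. The sum of the principal cell markers was 13.4 and 13.5 FPKM in Scr_300 and Scr_600 and 28.2 and 60.2 FPKM in Nfat5-KO_300 and Nfat5-KO_600, and the part of these markers in the differences between genotypes was not tested.

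Lifr, which encodes the signalling chain that binds LIF, was the member that differed most between groups. It lies on chromosome 15 (GRCm38, 7090614 to 7197489, plus strand). The 2 Scr_600 libraries held 466 and 392 Lifr reads, the 2 Scr_300 libraries 54 and 10. The 4 Nfat5-KO_600 libraries held 0, 1, 7 and 11 reads, and the 4 Nfat5-KO_300 libraries held 0 each. Both Scr_600 libraries were thus far above every other library, while the lower Scr_300 library lay within the range of Nfat5-KO_600. In FPKM the Scr_600 libraries had 1.16 and 1.04 and the Scr_300 libraries 0.139 and 0.0290, with group values of 1.10 in Scr_600, 0.0842 in Scr_300, 0.0130 in Nfat5-KO_600 and 0 in Nfat5-KO_300. In these bulk samples fewer cells with Lifr and less Lifr RNA per cell cannot be told apart. The order of the levels was Scr_600, Scr_300, Nfat5-KO_600 and Nfat5-KO_300, and of the neighbours in it only Scr_600 and Scr_300 had no overlap between libraries and a spread within groups well below their difference.

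**Figure D1:**
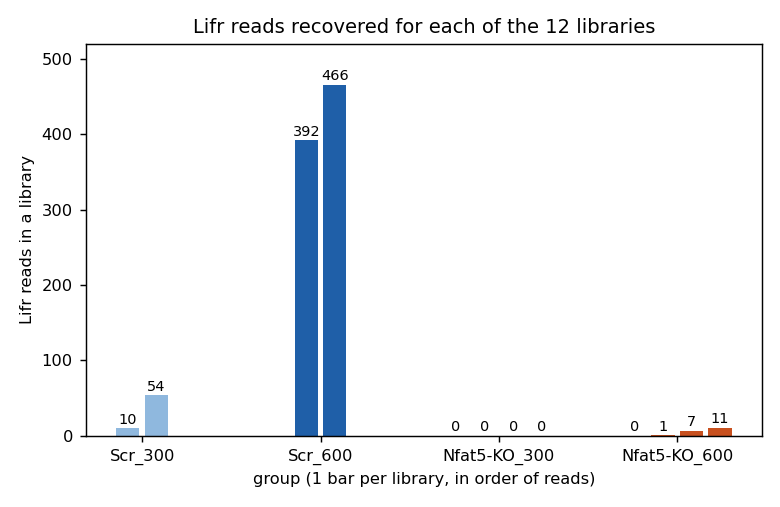
Lifr reads recovered for each of the 12 libraries, as bars from 0 in order of reads within the group. The 2 Scr_600 libraries hold 392 and 466 reads, and no other library exceeds 54.

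In Scr cells Lifr rose at 600 mosmol/kg. The group values differed 13.1-fold in FPKM, and the log2 ratio of FPKM + 0.1 was 2.70. Over the recovered libraries, 2 against 2, limma gave a log2 ratio of 2.77 ± 0.32 (SE) with a Benjamini-Hochberg adjusted p of 0.011 over 11918 genes. Lifr reached the 0.5 FPKM needed for this test only in Scr_600, the group where it was high, and without that filter the adjusted p was 0.13 over 22163 genes. Leaving out 1 library at a time kept the log2 ratio between 2.32 and 3.22, and the adjusted p was 0.082 without the deeper and 0.074 without the shallower Scr_600 library. In Nfat5-KO cells the change was from 0 reads to 19 reads over 4 libraries each, with a 95% Poisson interval of 11.4 to 29.7 reads for the sum, which covers counting error only. Against the limit that 3 reads over the Nfat5-KO_300 libraries set (0.00222 FPKM), the Nfat5-KO_600 value was 5.84-fold higher. This ratio leaves out the counting error of the 19 reads and is no lower bound, and 1 of the Nfat5-KO_600 libraries held no read as well. An exact permutation test of the reads gave p = 0.143 (two-sided, 0.19 adjusted over 4 comparisons). This test took reads unscaled for depth and did not separate the 2 clones.

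Between genotypes Lifr was 84.8-fold lower in FPKM in Nfat5-KO_600 than in Scr_600, with 19 reads over 4 libraries against 858 over 2 (95% Poisson interval 802.0 to 917.0), and a log2 ratio of FPKM + 0.1 of -3.41. At 300 mosmol/kg the Scr_300 value was 37.9-fold higher than the limit of 3 reads over the Nfat5-KO_300 libraries. Scr_300 had 64 reads over 2 libraries (49.3 to 81.7) against 0 over 4. These intervals cover counting error only and not the spread between libraries, which held 54 and 10 reads in Scr_300. At each osmolality both Scr libraries held more Lifr reads than any Nfat5-KO library. The exact permutation test gave p = 0.133 for both (two-sided, 0.19 adjusted), the smallest value that 2 libraries against 4 allow, so that these differences could not reach 0.05 in this test. It took reads unscaled for depth and treated the 4 knockout libraries as exchangeable, although they came from 2 clones.

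The shared chain Il6st, on chromosome 13 (112464070 to 112510086), was abundant in all groups. It had 17.7 and 15.9 FPKM in the Scr_300 libraries and 19.4 and 15.5 FPKM in the Scr_600 libraries, so that the groups overlapped, and limma gave a log2 ratio of 0.05 ± 0.15 (adjusted p = 0.87). In Nfat5-KO_300 it had 17.9 FPKM and in Nfat5-KO_600 21.6 FPKM, both just above the higher Scr library of the same osmolality. Of all genes with recovered libraries, 38.2% lay above both Scr libraries in the isotonic and 36.4% in the hypertonic comparison, so this position is common. In Scr_600 the level of Il6st per length was thus far above that of its partner Lifr, whose 2 libraries had about 1 FPKM.

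The other receptor chains were low. Osmr, the oncostatin M receptor on chromosome 15 (6813577 to 6874969), had 0.384 and 0.165 FPKM in the Scr_300 libraries, 0.413 and 0.306 FPKM in the Scr_600 libraries, 0.264 and 0.179 FPKM in Nfat5-KO_300 and Nfat5-KO_600. Il6ra, the interleukin-6 receptor on chromosome 3 (89864059 to 89913196), had 0.0869 and 0.257 FPKM in the Scr_300 libraries, 0.0935 and 0.112 FPKM in the Scr_600 libraries, 0.122 and 0.305 FPKM in Nfat5-KO_300 and Nfat5-KO_600. Neither gene reached 0.5 FPKM in a group, so both stayed out of all comparisons. The 4 Nfat5-KO_300 libraries held 23, 32, 35 and 42 Il6ra reads, and the Nfat5-KO_600 libraries held 356 to 384 together. Of the exons of Il6ra 2.8% are shared with an antisense gene, and the library kit does not mark strand. Il11ra1, the interleukin-11 receptor on chromosome 4 (41699989 to 41769474), had 2.01 and 1.91 FPKM in the Scr_300 libraries and 1.48 and 1.66 FPKM in the Scr_600 libraries. Its libraries did not overlap between the osmolalities, and limma gave a log2 ratio of -0.31 ± 0.19 (adjusted p = 0.37). The Nfat5-KO groups had 1.97 and 1.88 FPKM.

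Both ligand members were expressed by the cells. Lif, on chromosome 11 (4257557 to 4272514), had 6.94 and 4.45 FPKM in the Scr_300 libraries and 8.31 and 4.10 FPKM in the Scr_600 libraries. The spread within each Scr group was larger than the difference between them, and limma gave a log2 ratio of 0.07 ± 0.36 (adjusted p = 0.93). It had 7.74 FPKM in Nfat5-KO_300, above both Scr_300 libraries, and 4.17 FPKM in Nfat5-KO_600, at the lower Scr_600 library. The log2 ratio between the Nfat5-KO groups was -0.88. Compared with Scr_600 the log2 ratio of Nfat5-KO_600 was -0.56, and it was 0.02 when the deeper Scr_600 library was left out. Ctf1, cardiotrophin-1 on chromosome 7 (127712736 to 127718192), had 3.08 and 3.65 FPKM in the Scr_300 libraries, 4.59 and 3.71 FPKM in the Scr_600 libraries, 2.94 and 4.73 FPKM in Nfat5-KO_300 and Nfat5-KO_600. It shares 4.77% of its exons with Ctf2 on the other strand. The log2 ratio between the osmolalities was 0.29 ± 0.22 in Scr cells (limma, adjusted p = 0.46) and 0.67 in Nfat5-KO cells, without a test.

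The kinase and the transcription factor varied little. Jak1, the kinase that gp130 signalling mainly relies on (chromosome 4, 101152367 to 101265282), had 19.6 and 18.5 FPKM in the Scr_300 libraries and 19.1 and 18.0 FPKM in the Scr_600 libraries, with a log2 ratio of -0.04 ± 0.12 (limma, adjusted p = 0.87). It had 18.9 and 22.1 FPKM in Nfat5-KO_300 and Nfat5-KO_600. Stat3, on chromosome 11 (100885098 to 100939540), had 11.3 and 8.55 FPKM in the Scr_300 libraries and 13.1 and 11.0 FPKM in the Scr_600 libraries, which overlapped (log2 ratio 0.28 ± 0.17, limma adjusted p = 0.38). Its Nfat5-KO values were 9.98 and 10.7 FPKM.

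Socs3, the feedback inhibitor whose upstream sequence is printed above, lies on chromosome 11 (117966079 to 117970047, minus strand). The Scr_300 libraries had 287 and 300 reads or 2.76 and 3.25 FPKM, and the Scr_600 libraries had 564 and 502 reads or 5.25 and 4.94 FPKM. Both Scr_600 libraries were above both Scr_300 libraries. The log2 ratio of 0.75 ± 0.17 did not pass the limma test over all genes (adjusted p = 0.079). In Nfat5-KO_300 the value was 2.56 FPKM and in Nfat5-KO_600 2.91 FPKM, below both Scr libraries of the same osmolality in each case. Relative to Scr cells the log2 ratio was -0.79 in hypertonic and -0.22 in isotonic medium. Of all genes 37.4% lay below both Scr_600 libraries and 34.9% below both Scr_300 libraries.

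**Figure D2:**
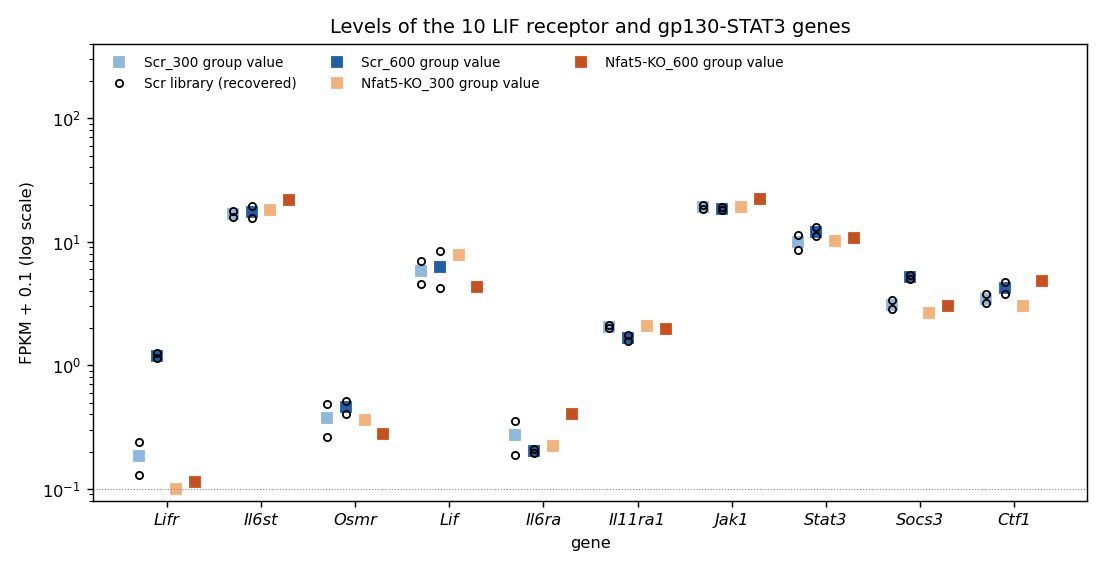
FPKM + 0.1 on a log scale for the 10 members, as squares for the 4 group values and open circles for the recovered libraries of the Scr groups. Lifr is the gene with the widest spread between groups, from 0 FPKM in Nfat5-KO_300 (dotted line) to 1.10 FPKM in Scr_600, while the group values of Il6st and Jak1 stay between 16.8 and 22.1 FPKM.

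Counted over the members, 1 of the 8 with at least 0.5 FPKM in Scr_300 or Scr_600 was at least 2-fold higher in Scr_600 (Lifr), as were 4.81% of 12929 genes, and 0 were 2-fold lower (2.86% of all). Lifr entered this count, the limma test, the hypertonic comparison of genotypes and the comparison of responses only through its level in Scr_600, so its counts there are no support of their own. By limma over the recovered libraries 1 of 8 members rose (1.92% of 11918 genes) and 0 fell (1.29% of all). At an unadjusted p under 0.05 Lifr and Socs3 passed, both higher, which is 2 of 8 members beside 10.2% of all genes higher and 12.7% lower. The libraries of 4 of the 8 members did not overlap between Scr_600 and Scr_300, compared with 55.6% of all genes. In Nfat5-KO cells 0 of 7 members were 2-fold higher (6.25% of 12982 genes) or lower (4.11%) at 600 mosmol/kg. Between genotypes 0 of 7 members differed 2-fold at 300 mosmol/kg, where 1.73% of 12704 genes were higher and 2.44% lower. At 600 mosmol/kg 1 of 8 members, Lifr, was at least 2-fold lower (3.68% of 13063 genes) and 0 were 2-fold higher (3.76%). The median log2 ratio of the members was 0.20, 0.18, 0.00 and 0.00 in these 4 comparisons, beside medians over all genes of -0.04, -0.04, 0.00 and -0.02.

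The hypertonic response of Lifr in Nfat5-KO cells minus that in Scr cells was -2.53 log2 units. Of the 8 members 1, Lifr, had a log2 response lower by at least 1 unit, beside 3.16% of 13414 genes, and 0 had one higher by 1 unit (3.88% of all). Lifr is in this count only through Scr_600, the 1 group in which it reached 0.5 FPKM. For Lif this difference was just short of the limit (log2 ratios of -0.88 in Nfat5-KO and 0.12 in Scr). For Socs3 it was -0.56 (0.18 in Nfat5-KO and 0.74 in Scr). The responses of Il6st, Il11ra1, Jak1, Stat3 and Ctf1 differed between the genotypes by -0.18 to 0.37 units. These differences rest on 1 value per Nfat5-KO group and have no test.

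**Figure D3:**
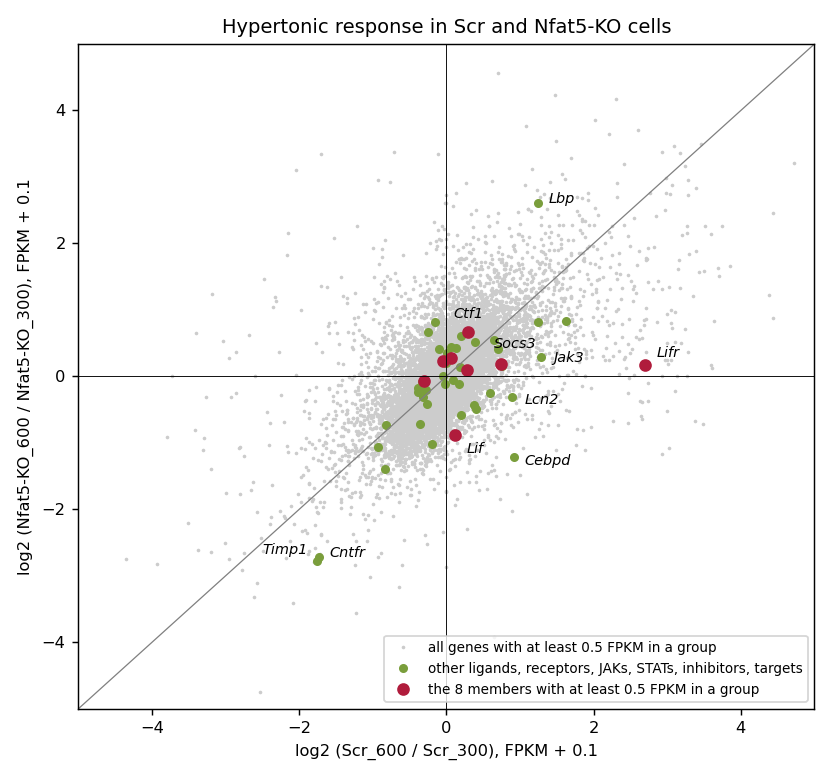
The log2 ratio of FPKM + 0.1 between 600 and 300 mosmol/kg in Scr cells (horizontal) and Nfat5-KO cells (vertical), with 13414 genes in grey, 7 of them outside the plotted range, 41 other pathway genes in green and 8 members in red. Lifr lies far right near the horizontal axis (2.70 and 0.18), well below the diagonal line of equal response, and Timp1 and Cntfr lie lowest in both genotypes among the genes coloured.

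Of the other ligand genes, Clcf1, which signals through CNTFR, gp130 and Lifr, had 14.1 and 10.1 FPKM in the Scr_300 and 21.5 and 9.77 FPKM in the Scr_600 libraries, which overlapped. Il6 and Osm had 0 reads in all 4 Scr libraries, which allows up to 3 reads in a group, and 3 and 1 reads over the Nfat5-KO_300 libraries and 8 and 2 reads over the Nfat5-KO_600 libraries. Of 9 receptor genes listed, 5 stayed below 0.5 FPKM in every group. The median log2 ratio at 600 mosmol/kg over the receptors that passed the filter was -0.12 in Scr (4 genes) and -0.06 in Nfat5-KO cells (3 genes, without Lifr). The median of all genes was -0.04 in both genotypes. Medians of so few genes do not describe the receptors as a set, since Lifr (2.70) and Cntfr (-1.73) lay far apart in Scr cells.

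Cntfr, the chain that binds CNTF and CLCF1 together with gp130 and Lifr, was lower at 600 mosmol/kg in both genotypes. It had 0.710 and 1.00 FPKM in the Scr_300 libraries and 0.232 and 0.143 FPKM in the Scr_600 libraries, without overlap. The log2 ratio of -1.73 ± 0.35 did not pass the limma test (adjusted p = 0.057). Cntfr reached the 0.5 FPKM needed for this test only in Scr_300, the group where it was high. Without that filter the limma adjusted p was 0.18. In Nfat5-KO cells it had 1.15 FPKM at 300 mosmol/kg and 0.0914 FPKM at 600 mosmol/kg, a log2 ratio of -2.71. Here too it passed the filter only through the isotonic group. The 4 Nfat5-KO_600 libraries held 3, 5, 8 and 19 Cntfr reads, against 391 to 416 reads over the Nfat5-KO_300 libraries.

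Among the 11 JAK and STAT genes, 10 passed the filter in each comparison, with Jak1 at the highest level and median log2 ratios at 600 mosmol/kg of 0.03 in Scr and 0.12 in Nfat5-KO cells. Jak3, the kinase of the common gamma chain receptors, rose in Scr cells from 7.16 and 7.89 FPKM to 18.3 and 18.7 FPKM (log2 ratio 1.29 ± 0.12, limma adjusted p = 0.0069), and lost the call without either Scr_300 library (adjusted p = 0.067 without the deeper and 0.055 without the shallower). In Nfat5-KO cells it had 5.62 FPKM at 300 mosmol/kg and 6.90 FPKM at 600 mosmol/kg, the latter with a log2 ratio of -1.41 to Scr_600. Of its exons 7.55% are shared with Insl3 on the same strand. The receptor subunit that JAK3 binds, Il2rg, stayed at 0.0663 FPKM or less in every group. Of the exons of Il2rg 30.5% are shared with Gm20489 on the same strand, and the effect of this on its value was not tested.

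Of the 15 JAK-STAT inhibitors all passed the filter, and 14 had recovered libraries. In Scr cells 0 passed limma, beside 1.92% of all genes higher and 1.29% lower. At an unadjusted p under 0.05, 4 of the 14 were higher (10.2% of all genes) and 2 lower (12.7%). By group values 1 of 15 was at least 2-fold higher in Scr_600 than in Scr_300 (Cish, beside 4.81% of all genes), and in the hypertonic comparison of genotypes 1 was higher (Socs1, beside 3.76%) and 1 lower (Socs2, beside 3.68%). Cish, a STAT5 target that blocks cytokine receptors, had 0.863 and 0.502 FPKM in the Scr_300 libraries and 2.88 and 1.74 FPKM in the Scr_600 libraries (log2 ratio 1.62 ± 0.32, limma adjusted p = 0.053), and 0.885 and 1.65 FPKM in the Nfat5-KO groups. Socs1 had 0.794 FPKM in Nfat5-KO_600 against 0.250 and 0.392 FPKM in the Scr_600 libraries, a log2 ratio of 1.09 that was 0.86 without the deeper Scr_600 library. Socs2 had 1.83 FPKM in Nfat5-KO_600 against 3.74 and 3.89 FPKM in the Scr_600 libraries, a log2 ratio of -1.02 that was -0.99 without the shallower one. Ptpn1, a phosphatase that acts on JAK kinases, had the highest level, 19.9 to 25.8 FPKM in the groups. The 12 genes of the SHP2 and ERK branch, led by Ptpn11 (SHP2) with 47.3 to 53.6 FPKM, had 0 genes past 2-fold in any comparison. Over all genes 1.73% to 6.25% were past 2-fold in a given direction. By limma 0 of the 12 passed, beside 1.92% of all genes higher and 1.29% lower. At an unadjusted p under 0.05, 1 of the 12 was lower (beside 12.7%). The median log2 ratio at 600 mosmol/kg was 0.07 in Scr and 0.36 in Nfat5-KO cells for the inhibitors, and -0.02 and -0.03 for this branch.

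Of 29 genes listed as STAT3 targets, which include Socs3, Stat3, Osmr and Il6st, 20 passed the filter, and in Scr cells by limma 1 rose (Lcn2, beside 1.92% of all genes) and 1 fell (Timp1, beside 1.29%). Lcn2, the iron-binding injury protein lipocalin-2, had 107.3 and 102.8 FPKM in the Scr_300 libraries and 186.9 and 203 FPKM in the Scr_600 libraries (log2 ratio 0.89 ± 0.13, limma adjusted p = 0.023). Timp1, an inhibitor of matrix metalloproteinases, had 16.0 and 16.3 FPKM and then 4.88 and 4.49 FPKM (log2 ratio -1.76 ± 0.18, adjusted p = 0.0073). By group values Lbp and Vegfa were at least 2-fold higher (4.81% of all genes), but their libraries were uneven. Vegfa had 1.75 and 5.11 FPKM in Scr_300 and its log2 ratio went from 1.24 to 0.68 without the deeper of these, and Lbp had 2.67 and 6.25 FPKM in Scr_600 and its log2 ratio went from 1.25 to 0.53 without the shallower of these. Without 1 library at a time the adjusted p was 0.086 to 0.19 for Lcn2 and 0.049 to 0.087 for Timp1, while the log2 ratios stayed between 0.83 and 0.95 and between -1.82 and -1.70. The median log2 ratio of the 20 genes was 0.19, beside -0.04 over all genes.

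In Nfat5-KO cells 5 of the 20 were at least 2-fold lower at 600 mosmol/kg (Cebpd, Ccnd1, Timp1, Klf4 and Ier3), beside 4.11% of all genes, and 1 was higher (Lbp, beside 6.25%), with a median log2 ratio of -0.24, beside -0.04 over all genes. Cebpd, an acute-phase transcription factor, had 2.21 and 1.13 FPKM in the Scr_300 and 3.36 and 3.13 FPKM in the Scr_600 libraries, but 3.32 and 1.37 FPKM in Nfat5-KO_300 and Nfat5-KO_600. Lcn2 had 77.9 and 63.1 FPKM in Nfat5-KO_300 and Nfat5-KO_600, the latter below both Scr_600 libraries with a log2 ratio of -1.63. Ccnd1, cyclin D1, had 123.6 and 59.4 FPKM in the Nfat5-KO groups and 99.3 and 52.1 FPKM in the Scr groups. It shares 23.36% of its exons with LTO1 on the other strand. Klf4 had 12.5 and 4.70 FPKM in Nfat5-KO_300 and Nfat5-KO_600, and Ier3 had 91.6 and 45.3 FPKM. The log2 response in Nfat5-KO minus that in Scr was -1 or less for 3 of the 20 (3.16% of all genes) and 1 or more for 1, Lbp, with a difference of 1.37 (3.88%). The 3 were unlike in shape, since Cebpd was higher at 600 mosmol/kg in Scr (0.92) and lower in Nfat5-KO cells (-1.22), Lcn2 was higher in Scr (0.89) with -0.30 in Nfat5-KO cells, and Timp1 was lower in both, by more in Nfat5-KO cells (-1.76 and -2.77). At 600 mosmol/kg Cebpd, Lcn2 and Vegfa were at least 2-fold lower in Nfat5-KO than in Scr (3.68% of all genes), and Lbp, the lipopolysaccharide binding protein, was higher with 12.7 FPKM (3.76%). At 300 mosmol/kg Vegfa was the 1 gene of the 20 past 2-fold (log2 ratio -1.27, beside 2.44% of all genes lower), and the ratio was -0.34 without the shallower Scr_300 library. The liver acute-phase genes Fga, Fgb, Fgg, Saa3, Hp and Lrg1 stayed below 0.1 FPKM in every group.

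**Figure D4:**
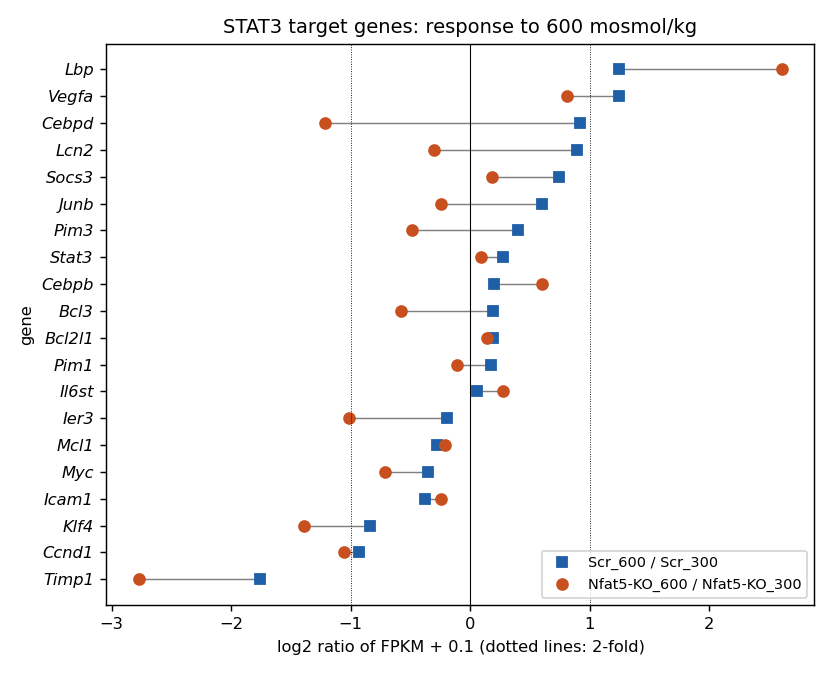
The log2 ratio of FPKM + 0.1 between 600 and 300 mosmol/kg for the 20 STAT3 target genes with at least 0.5 FPKM, with squares for Scr cells and circles for Nfat5-KO cells and dotted lines at 2-fold. Cebpd shows the widest gap between the genotypes (0.92 and -1.22), and Timp1 lies lowest in both (-1.76 and -2.77).

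Of 34 other cytokine receptor genes 18 passed the filter in Scr cells. By limma 1 of the 18 rose (beside 1.92% of all genes) and 0 fell (beside 1.29%). The gene that rose was Epor, the erythropoietin receptor, from 2.38 and 2.34 FPKM to 6.35 and 6.50 FPKM (log2 ratio 1.41 ± 0.17, limma adjusted p = 0.015). Its adjusted p was 0.074 to 0.15 without 1 library at a time, with log2 ratios of 1.39 to 1.42. In Nfat5-KO cells it had 2.51 and 5.55 FPKM. Crlf2, a receptor chain for thymic stromal lymphopoietin, had 5.38 and 2.40 FPKM in the Nfat5-KO groups (log2 ratio -1.13), and 3.99 and 3.24 FPKM in the Scr groups. Il17re had a log2 ratio of 1.08 between Nfat5-KO_600 and Scr_600 (6.67 and 3.09 FPKM), which was 0.91 without the deeper Scr_600 library. Il17rc had the highest mean level of these receptors, with 18.6 to 23.6 FPKM. For orientation, the tonicity genes Akr1b3, Slc6a12, Slc5a3 and Hspa1b had log2 ratios of 2.87, 4.39, 1.11 and 1.34 in Scr cells and 1.43, 1.23, 0.27 and -0.30 in Nfat5-KO cells, while Slc6a6 had 0.88 and 1.37. Slc6a12 reached 0.5 FPKM only in Scr_600, so both of its ratios depend on the pseudocount. In Nfat5-KO cells it had 0 and 0.135 FPKM and was below the filter.

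The genes with patterns most like Lifr were sought among 11637 genes with at least 0.5 FPKM in every group, by the distance between log2(FPKM + 0.1) centred over the 4 group values. They were Ifit1bl1 (distance 0.53), Lypd2 (0.55), Nadk2 (0.60), Dusp6 (0.73) and Ifi27 (0.75). Lifr itself reached 0.5 FPKM only in Scr_600, so its distances depend on the pseudocount, which flattens its pattern more than theirs. At 600 mosmol/kg Lifr had 1.1 FPKM in Scr and 0.013 FPKM in Nfat5-KO cells, and Ifit1bl1 had 9.58 and 1.06 FPKM. Genes below 0.5 FPKM in any group, such as Slc6a12, were not searched. Dusp6, a phosphatase of ERK, had 10.2 and 58.7 FPKM in Scr_300 and Scr_600 and 7.70 and 10.3 FPKM in Nfat5-KO_300 and Nfat5-KO_600. Nadk2, the mitochondrial NAD kinase, had 6.11, 33.0, 4.27 and 5.16 FPKM in the same order. Closest to Socs3 were Samd4, Lemd2, Dtnb, Gm8439 and Gpr157, at distances of 0.07 to 0.10, and Samd4 had 3.96, 6.59, 3.53 and 3.95 FPKM. With 4 values per gene many genes share a shape, and these distances carry no test.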

How the data were processed

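RNA-seq of 12 samples of mpkCCD cells was used, with groups taken from the sample titles. As the study describes, the authors isolated polyadenylated RNA, mapped paired-end reads with HISAT2 (GRCm38, mm10), made gene counts in HTSeq and scaled them to RPKM. They also compared groups with DESeq2, and those results are not reported here. The versions and the annotation release are not given in the sources used here. The authors deposited 1 FPKM value per gene and group and no value per library. Of the rows, 2425 held no value, 311 were exact duplicates, and 37 symbols with several rows were left out. Columns of other samples numbered 0.

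Log2 ratios of FPKM + 0.1 were taken where either group reached 0.5 FPKM, and a 2-fold difference was the limit for counting a gene. This scale understates the change of low genes. FPKM times the exon length of GENCODE M21 is a sum over libraries of reads divided by the scaling total of each library, and these totals and reads were solved for within the rounding of the values (10 significant digits). The residuals were 0.570 to 0.578 of the rounding (root mean square). On log2(FPKM + 0.1) of the recovered Scr libraries limma 3.58.1 (R 4.3.3) was run with a variance trend over mean reads and Benjamini-Hochberg adjustment over 11918 genes. This test was chosen after seeing the data, in place of no test, and p-values measure the spread between libraries whose origin as separate cultures is not stated in the labels. For the Nfat5-KO groups no test over all genes was possible. Lifr reads per library were compared with exact permutation tests, without scaling for depth and without regard to clone. The recovery of reads and the limma test were tried on simulated Scr groups of 2 libraries each. The changed genes simulated there lay at higher mean levels than Lifr. The recovery for the Nfat5-KO groups and the permutation tests were not simulated. Poisson intervals are at 95%, and a count of 0 was given a limit of 3 reads over the group.

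The members and all lists and markers were chosen with earlier results of these data known. Named are all members, of each other list the genes at least 2-fold different in a comparison and the one with the highest level, and the 5 genes closest to Lifr and to Socs3. Clcf1, Il6, Osm, Il2rg and the liver acute-phase genes lie outside this rule and were chosen after their values were seen. Promoter sequences are from RefSeq (GRCm38.p6), and all 10 members matched by symbol. Protein sequences were not used here, and some genes that the rule names are not reported here. Python 3.11.15, pandas 2.3.3 and scipy 1.17.1 were used. Alternatives were other pseudocounts and filters, median-of-ratios scaling, a 1.5-fold limit and leaving out each Scr library.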

Additional observations from a re-analysis of the deposited data

How the results depend on the processing

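Of 466 values recomputed under other settings, 416 kept their direction and side of the threshold, or stayed within the replicate spread or 1.5 times of a count, and 0 reversed. The results for Lifr depend on how low values are treated. With a pseudocount of 1 its log2 ratio was 0.95 in Scr cells and -1.05 between the genotypes at 600 mosmol/kg, and with 0.01 it was 3.56 and -5.59, since the pseudocount is close to its level. With a pseudocount of 1, therefore, 0 members were 2-fold higher in Scr_600 and 0 had a log2 response lower by 1 unit in Nfat5-KO than in Scr cells, while with 0.01 such a difference was counted for 2 members (Lifr, and Lif, which was lower at 600 mosmol/kg in Nfat5-KO cells and nearly level in Scr cells). With a mean of at least 1 FPKM Lifr was not counted at all, so 0 members were 2-fold higher in Scr_600, 0 were 2-fold lower in the hypertonic comparison of genotypes, 0 had a lower log2 response and 0 rose in limma. Without a filter 1 member (Il6ra) had a higher log2 response in Nfat5-KO cells. With median-of-ratios scaling 2 members (Lifr and Lif) had a lower log2 response. With a 1.5-fold limit 2 members were higher in Scr_600, 1 was higher and 1 lower at 600 mosmol/kg in Nfat5-KO cells, 2 were lower in the hypertonic comparison of genotypes, and 2 had a lower log2 response.

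The limma test called 383 of 11918 genes. Without a filter it called 0 of 22163 genes and 0 members (3294 genes at an unadjusted p under 0.05, against 2740 with the filter), and the adjusted p was 0.13 for Lifr, 0.072 for Jak3 and Timp1, 0.11 for Lcn2 and 0.1 for Epor. The cause was not tested beyond the larger number of genes. Leaving out 1 Scr library at a time gave 69 to 118 called genes, 0 to 1 members that rose and 1 to 2 members with a lower log2 response. The range of its adjusted p for Lifr over all these settings was 0.011 to 0.13. No paired analysis was possible because the 2 Scr groups share no replicate number and the Nfat5-KO values carry no library labels. Depth limits statements on Lifr, Osmr and Il6ra, whose libraries in Nfat5-KO held few reads, and the comparisons with Nfat5-KO have no test over all genes.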
